A study of Mus musculus with 7 samples.

Results

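Transcript clusters without a gene symbol were examined in HM-1 cells with and without hairpins against Snail. HM-1 cells are a line from a mouse ovarian tumour, and Snail is the transcription factor encoded by Snai1. A transcript cluster is the unit in which the Affymetrix Mouse Transcriptome Array 1.0 groups its probes: a stretch of one chromosome thought to give rise to RNA. Of the 65770 clusters in the table, 33121 carried no symbol in the platform annotation, and the clusters described here were chosen by level among these, at a mean log2 signal of 8 or more on the 3 control arrays. This left 2019 members, or 6.10% of the clusters without symbol, against 26.8% of the clusters with one. The level on the control arrays therefore chose the members and is no result. The same control arrays also entered each comparison with control, whereas the comparison of the hairpins with each other used none of them.

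RNA of cultured cells was measured on 7 arrays, 1 per sample. The 3 control arrays carried RNA of HM-1 cells with a non-silencing control hairpin, and 2 arrays each carried RNA of cells with the hairpin sh1 or sh2, both against Snail (together HM-1-shSnail). The hairpins against Snail were delivered by GIPZ lentiviral particles. The sources used here name no separate transductions for the replicates of a hairpin, so that p-values measure the spread between these samples only.

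Each hairpin has a target sequence of 19 bases in Snai1 on chromosome 2, of which 16 are A or T in both. The sequences are shown because the sh1 and sh2 cells differ by them. No sequence of the members themselves was used here.
sh1: agtttattgatattcaata
sh2: tggttaatttatatactaa

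The Snai1 cluster read 6.61, 6.69 and 6.70 in control, 6.80 and 6.55 under the label sh1, and 6.69 and 6.77 under the label sh2 (log2 signal). These values overlapped, and the difference of shSnail from control was 0.03 (SE 0.07, adjusted p = 0.852, limma). The targeted gene thus did not check the labels, and each direction below is that of the arrays as labelled. The level of Snai1 also lay below the 95th percentile of the negative controls, which ran from 7.82 to 7.97 on the control arrays. Of the marker lists for this cell line, 3 of 6 epithelial genes, among them Krt8 and Krt18, and 2 of 4 mesenchymal genes, Vim and Fn1, lay above that percentile on the control arrays. None of the 4 leukocyte, 3 endothelial or 4 ovarian and mesothelial markers did (0 in each list), and Cdh1 and Epcam were among those below it.

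Transcriptome arrays carry many clusters that were predicted from transcript evidence and never given a gene name. Such clusters can be long non-coding RNAs, antisense RNAs, small structural RNAs, processed pseudogenes, copies of repeats, or further exons of a named gene, and the array signal alone does not tell these apart. The cluster ID holds the chromosome and a running number. Among 22408 clusters with 1 symbol that were matched to RefSeq by Entrez number, 99.6% lay on the chromosome of their ID, and in 99.0% of successive pairs the start position rose with the number. The numbers could therefore be used to find neighbours, although they give neither a position nor a strand. IDs are written here without their common ending.

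The members were as bright as the named clusters chosen at the same level. Their control means reached 18.93 with a median of 10.88, against a median of 10.70 in the 8747 clusters with a symbol at 8 or more. Members at 14 or more numbered 438, or 21.7% of them, against 13.8% of those named clusters. The spread within groups was larger in the members, with a median SD of 0.11 against 0.06. Of the 5222 negative control rows, marked as such by their IDs, 232 or 4.44% also reached a control mean of 8. A level of 8 hence did not by itself separate a cluster from background.

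The 10 brightest members lay between 18.38 and 18.93. TC1600000133 gave 18.98, 18.89 and 18.91 in control, 18.70 and 18.90 under sh1 and 18.90 on both sh2 arrays. TC0400001746 and TC0900002348, on different chromosomes, held the same 7 values, 18.96, 18.89, 18.89, 18.76, 18.89, 18.89 and 18.89 in the order control, sh1 and sh2. None of the 10 passed the test in any comparison (0 of 10), and the groups overlapped in these 3. At the lower edge, the 3 members just inside the level, TC0500002036, TC0600000593 and TC0900000538, had control means of at most 8.01. The 3 clusters just outside, TC0200005100, TC0700001613 and TC0800002037, missed it by less than 0.01, and TC0200005100 was higher by 1.06 on the sh2 arrays (SE 0.12, adjusted p = 0.0412, limma), so that the level left out clusters that moved.

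The members as a whole lay slightly higher with sh2 and hardly differed from control with sh1. The median shift against control, over the members, was 0.03 with sh1 (quartiles -0.08 and 0.18) and 0.10 with sh2 (quartiles -0.02 and 0.39). On the sh2 arrays 1419 of 2019 members (70.3%) were above their control mean, and on the sh1 arrays 1145 (56.7%). The medians in the 8747 named clusters of the same level were 0.01 and 0.00, with 53.0% and 50.2% above control. Over all 65770 clusters both medians were 0.00.

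Array by array, the median difference of the members from their control mean was -0.016, -0.006 and 0.045 in control, 0.018 and 0.035 under sh1 and 0.095 and 0.097 under sh2. Both sh1 arrays lay inside the range of the control arrays, and both sh2 arrays lay above it. Control replicate 3 stood above the other control arrays, with 969 members (48.0%) at their highest control value there, and without it the median shifts were 0.047 with sh1 and 0.119 with sh2. Without control replicate 1 they were 0.010 and 0.094, and after quantile normalization 0.006 and 0.046.

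The negative controls moved in the same direction and farther. Their median difference from the control mean was 0.065 and 0.104 on the sh1 arrays and 0.243 and 0.282 on the sh2 arrays, while the control arrays lay between -0.023 and 0.009. The median shift over all 5222 rows was 0.10 with sh1 and 0.27 with sh2, and 68.8% of rows were above control with sh2. In the 232 rows at 8 or more it was -0.02 with sh1 and 0.26 with sh2. The part of this background in the shift of the members was not tested. Set against the negative controls instead of the deposited scale, the median shift of the members was -0.076 with sh1 and -0.215 with sh2, so that its direction was that of the reference chosen. On that scale the median of all clusters moved by -0.10 with sh1 and by -0.31 with sh2, and the median of the members lay above it.

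**Figure D1:**
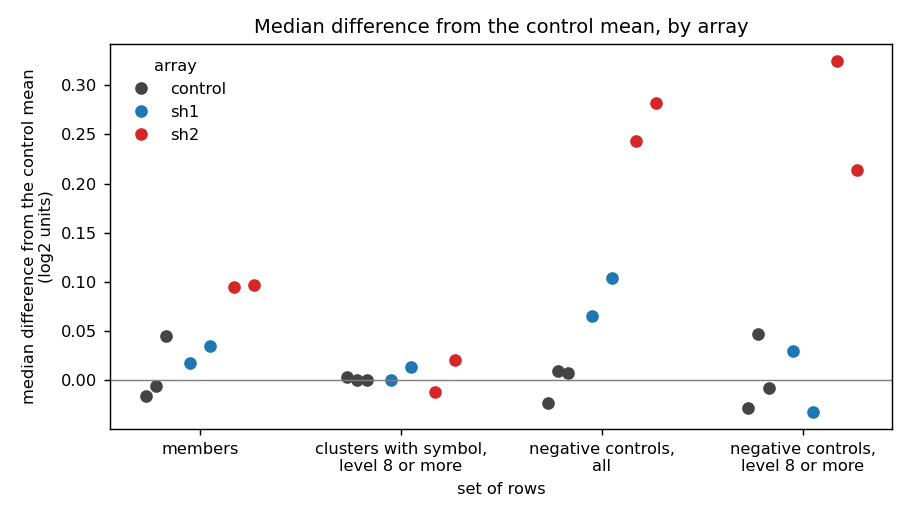
Median difference from each row's control mean (log2 units, vertical axis) for 4 sets of rows, with 1 point per array and the colour giving the group. The sh2 points of the members, at 0.095 and 0.097, lie above the control arrays and below the sh2 points of all negative controls, at 0.243 and 0.282, while the named clusters of the same level stay between -0.012 and 0.021.

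The shift with sh2 was not the same at every level. Its median was 0.16 in the 425 members between 8 and 9, 0.24 in the 325 between 9 and 10 and 0.17 in the 295 between 10 and 11, and was 0.06 in the 258 between 14 and 16 and 0.02 in the 180 at 16 or more. With sh1 the medians ran from 0.10 between 9 and 10 to -0.09 at 16 or more. Named clusters in the same 7 ranges of level had medians between 0.00 and 0.01 with sh2 and between -0.01 and 0.03 with sh1. Negative controls had sh2 medians between 0.05 and 0.32 in these ranges, although the upper ranges held as few as 10 rows. A median over the members is thus an average over ranges that differ.

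**Figure D2:**
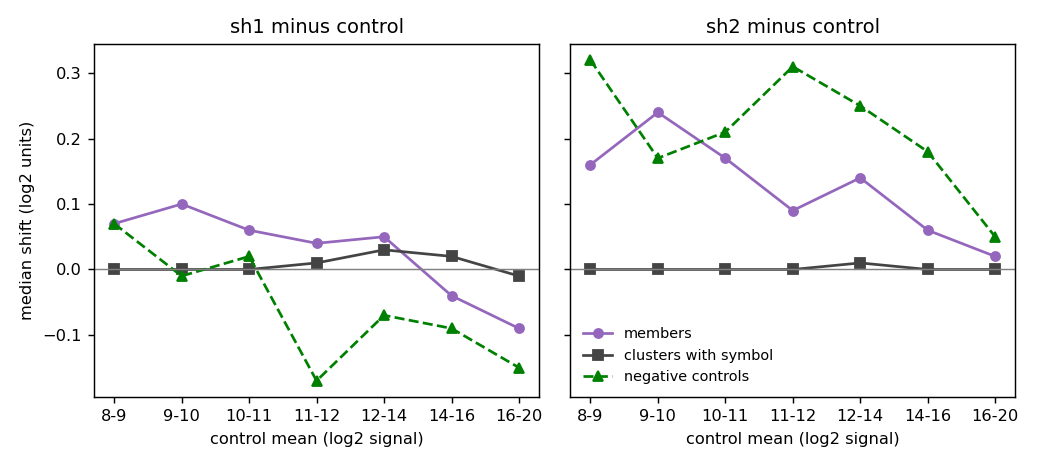
Median shift against control (log2 units, vertical axis) by range of the control mean (log2 signal, horizontal axis), with sh1 on the left and sh2 on the right, for members, named clusters and negative controls. With sh2 the members lie between 0.02 and 0.24, the named clusters at or near 0, and the negative controls between 0.05 and 0.32.

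By the chromosome in the ID, members were most numerous on chromosomes 2 (177), 4 (171), 7 (123) and 11 (122). They formed between 4.38% (chromosome 14) and 8.68% (X) of the clusters without symbol on the autosomes and X. The median shift with sh2 was above 0 on every chromosome, from 0.04 on chromosome 4 and 0.05 on chromosome 2 to 0.20 on chromosome 3 and 0.21 on chromosome 10 among the autosomes, and it was 0.07 on X. With sh1 the autosomal medians ran from 0.00 to 0.09, the highest on chromosome 9. All autosomes and X lay below the 0.27 of all negative controls with sh2, and below their 0.10 with sh1. The 232 negative controls at 8 or more had medians of 0.26 with sh2 and -0.02 with sh1. All autosomes and X lay below the former and above the latter, so that the order with sh1 turned at matched level.

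The quartiles overlapped between all autosomes. They give the spread of members and not the precision of a median, and whether any 2 of these medians differ was not tested. Among the autosomes, the named clusters of chromosomes 2 and 19 had the highest medians, with no test, at 0.08 and 0.07 with sh1 and 0.06 and 0.08 with sh2. The members on the same chromosomes had medians of 0.00 and 0.02 with sh1 and 0.05 and 0.09 with sh2. The 4 members on Y were above control with both hairpins, with medians of 0.18 and 0.58, and 5 named clusters there had medians of 0.19 and 0.46. These 4 had a median control level of 8.31, close to the 95th percentile of the negative controls (7.82 to 7.97 on the control arrays). Whether their signal came from Y was not tested. Another 8 members had IDs outside the plain chromosome pattern, some of them with a chromosome in the ID, and their medians were -0.03 and 0.38.

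**Figure D3:**
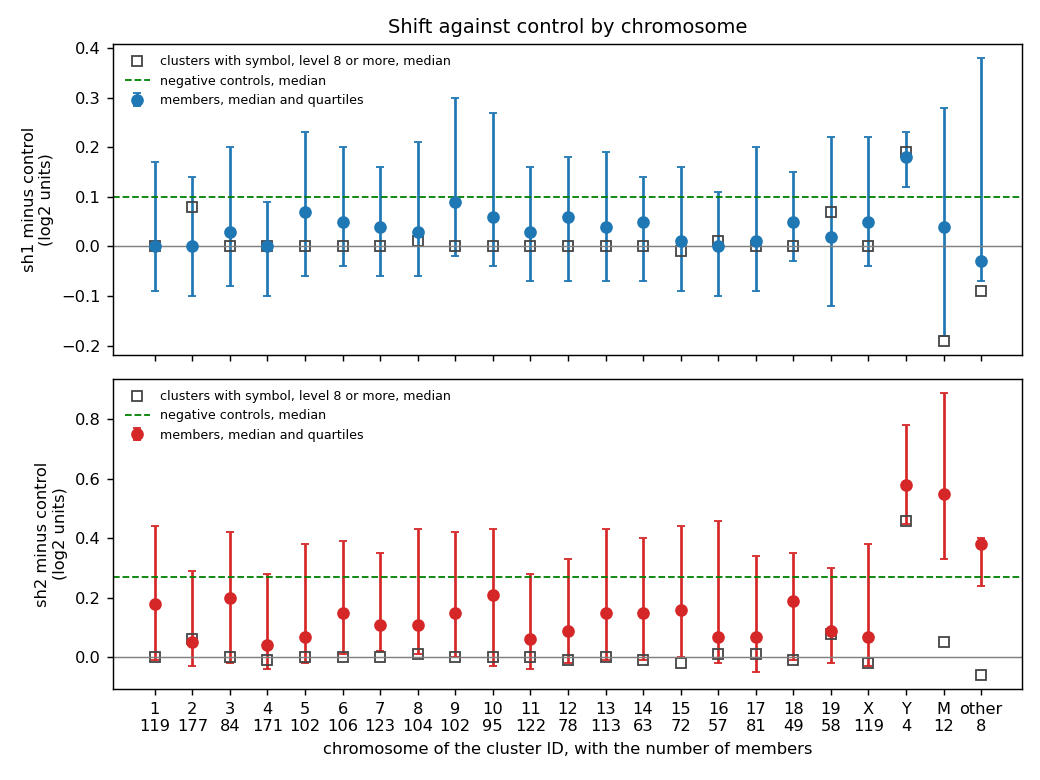
Shift against control (log2 units, vertical axes) by chromosome, with sh1 above and sh2 below: filled points are medians of the members with their quartiles, open squares medians of named clusters at 8 or more, and the dashed line is the median of the negative controls. With sh2 the member medians of the autosomes lie between 0.04 and 0.21, those of Y (4 members) and M (12 members) at 0.58 and 0.55.

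The mitochondrial chromosome held 12 members, 63.2% of its 19 clusters without symbol. Mitochondrial DNA is transcribed along the whole of both strands and then cut into its messenger, ribosomal and transfer RNAs, so that RNA from between and opposite the genes is found in most cells. The median shift of the 12 was 0.04 with sh1 and 0.55 with sh2, and 10 of 12 were above control with sh2. The 11 named mitochondrial clusters at 8 or more had medians of -0.19 and 0.05. TC0M00000030 gave 11.81, 11.79 and 12.23 in control, 12.61 and 12.79 under sh1 and 13.35 and 13.65 under sh2. Its groups did not overlap, and it was the only one of the 12 to pass in any comparison, higher by 1.56 with sh2 (SE 0.18, adjusted p = 0.0414) and by 0.76 with sh1 (SE 0.18, adjusted p = 0.334, limma). The members TC0M00000022, TC0M00000024, TC0M00000026, TC0M00000028 and TC0M00000030 formed a run by number, and their sh2 shifts lay between 0.48 and 1.56, whereas TC0M00000010 and TC0M00000019, at 17.46 and 15.04 on the control arrays, both shifted by -0.07.

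The hairpins were compared with each other without any control array. Over the members, sh2 lay above sh1 by a median of 0.08, and 65.8% of members were higher with sh2, against a median of 0.00 and 45.3% in the named clusters at 8 or more. Both sh2 arrays were above both sh1 arrays in 825 members (40.9%), against 11.1% of all clusters and 12.7% of the named ones. Both were below in 181 members (8.96%), against 10.1% and 14.7%. Median shifts of 0.18 in all negative controls and 0.25 in those at 8 or more stood beside these, and their part was not tested. The shares without overlap also depend on ties, since an array equal to another lies neither above nor below it. Equal values on 2 or more arrays occurred in 39.4% of members, 60.8% of the named clusters at 8 or more and 79.9% of all clusters. How far ties set the shares of these sets apart was not tested. No single member passed the adjusted test in this comparison by limma (0 lower and 0 higher, with 0.00% of all clusters called in either direction). At an unadjusted p under 0.05, 37 members were lower (1.83%, against 2.26% of all clusters) and 425 higher (21.1%, against 3.74%). Centred on the negative controls the split turned to 376 lower and 43 higher at an adjusted p under 0.05. That centring moved the median of all clusters by -0.21. The share of all clusters called under it is not given here, so this turn is not read as a result about the members. Without sh2 replicate 1 the test called 8 members lower and 11 higher, without sh2 replicate 2 it called 3 and 6, and without sh1 replicate 2 it called 0 and 2.

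Against control, 15 members were lower and 15 higher on the 4 shSnail arrays at an adjusted p under 0.05, which is 0.743% of the members in each direction. The shares over all clusters were 0.432% lower and 0.210% higher, and among named clusters of the same level they were 1.76% and 0.995%. A change of more than 2-fold was seen in 7 of the lower and 3 of the higher members. Centred on the negative controls, which moved the median of all clusters by -0.21, the split was 154 lower and 84 higher. The shares of all clusters under that centring are not given here, so this split is not read as a result about the members. When any 1 of the 7 arrays was left out, between 3 and 6 members were called lower and between 2 and 6 higher: 3 and 2 without control replicate 1, 3 and 3 without control replicate 2, 6 and 5 without control replicate 3, 5 and 2 without sh1 replicate 1, 5 and 6 without sh1 replicate 2, 6 and 4 without sh2 replicate 1, and 5 and 3 without sh2 replicate 2. All 4 shSnail arrays lay below all control arrays in 120 members (5.94%), against 4.01% of all clusters, and above them in 364 (18.0%), against 5.08%. Among the named clusters of the same level these shares were 13.2% and 14.7%. Ties, which differed between these sets as given above, enter these shares too.

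With sh1 alone, 5 members (0.248%) were lower and 3 (0.149%) higher. The shares were 0.0821% and 0.0517% over all clusters, and 0.412% and 0.206% among named clusters of the same level. With sh2 alone, 15 members (0.743%) were lower and 42 (2.08%) higher. The shares were 0.477% and 0.809% over all clusters, and 1.85% and 1.74% among the named ones. The share of the members exceeded that of the named clusters only for higher calls with sh2. The sh2 counts were 20 and 117 after median centring. After centring on the negative controls they were 941 and 145, and those of sh1 were 27 and 7. The latter centring moved the median of all clusters by -0.31 with sh2 and by -0.10 with sh1. The shares of all clusters called under either centring are not given here, so these counts are not read as results about the members. The sh2 counts fell to 0 and 0 without control replicate 1 or without control replicate 2, and to 0 and 1 without either sh1 array, which adds only to the estimate of the spread. They were 8 and 35 without control replicate 3, 23 and 54 without sh2 replicate 1, and 21 and 24 without sh2 replicate 2. The sh1 counts were 0 and 0 without control replicate 1 or 2, 0 and 1 without control replicate 3, 2 and 3 without sh1 replicate 1, 8 and 3 without sh1 replicate 2, and 1 and 0 without either sh2 array. Because the comparisons share the control arrays, the values of single members are given side by side below.

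The lower members included a group on chromosome 14. TC1400000430 gave 8.75, 8.76 and 8.69 in control, 6.85 and 7.07 under sh1 and 6.97 and 6.74 under sh2. It fell by 1.77 with sh1 (SE 0.10, adjusted p = 0.0323), it fell by 1.88 with sh2 (SE 0.10, adjusted p = 0.0203) and it fell by 1.82 in the joint comparison (SE 0.08, adjusted p = 0.00296, limma), and it kept its call without each of the 7 arrays in turn. The study names this cluster Gm10378, a predicted gene of the DUF622 family, a group of similar genes of unknown function. The study chose its names on these samples, so they are no independent evidence.

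TC1400000431, named Gm3008 by the study and described as a pseudogene of the same family, gave 8.34, 8.52 and 8.35 in control, 6.64 and 7.15 under sh1 and 6.83 and 6.95 under sh2. It fell by 1.51 (SE 0.13, adjusted p = 0.0156, limma). TC1400000422, which has no name in the sources used here, gave 8.41, 8.35 and 8.45, then 7.54 and 7.21, then 7.25 and 7.38. It fell by 1.06 (SE 0.09, adjusted p = 0.0142, limma). Both kept their call in only 2 of the 7 fits with 1 array left out. None of the 3 clusters had an array that overlapped between control and shSnail. On the shSnail arrays all 3, TC1400000430 included, lay below the 95th percentile of the negative controls there (8.05 to 8.39), so that the sizes of these falls are uncertain. Among the clusters numbered 410 to 450 on this chromosome, a range chosen after the values were seen, 17 of 26 with a symbol were called lower. Of those without one, 8 of 15 were called lower, and 0 in the range were called higher. Over all clusters, 0.432% were called lower jointly. The 3 members were the only clusters without symbol in the range to reach a control level of 8. Genes of one family share sequence, and how the probes were shared among them is not given in the sources used here.

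TC0400002251 on chromosome 4 is named Ripk2 by the study, the gene of a kinase that carries the signal of the intracellular receptors Nod1 and Nod2 to NF-κB. It gave 10.29, 10.38 and 10.34 in control, 9.30 and 9.32 under sh1 and 9.14 and 9.37 under sh2. All shSnail arrays were below all control arrays. It fell by 1.03 with sh1 (SE 0.08, adjusted p = 0.0472), it fell by 1.08 with sh2 (SE 0.08, adjusted p = 0.0268) and it fell by 1.05 jointly (SE 0.06, adjusted p = 0.00579, limma), and its joint call was kept without each array in turn. The cluster stands among those without symbol because the platform annotation does not pair it with that gene.

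TC1000000939 on chromosome 10 gave 8.19, 7.99 and 8.05 in control, 6.49 and 6.46 under sh1 and 6.43 and 6.24 under sh2. It fell by 1.60 with sh1 (SE 0.08, adjusted p = 0.0323), it fell by 1.74 with sh2 (SE 0.08, adjusted p = 0.0203) and it fell by 1.67 jointly (SE 0.08, adjusted p = 0.00333, limma), with a joint call kept without each array. No name for it was found, and its level on the shSnail arrays was below the 95th percentile of the negative controls there, which ran from 8.05 to 8.39, so that the size of its fall is uncertain. The next number belongs to D10Wsu102e, at 11.21 on the control arrays and with a difference of 0.10 (adjusted p = 0.639, limma).

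TC1300002714 on chromosome 13 stands next by number to Itga2, which encodes a subunit of a collagen-binding integrin. It gave 9.57, 9.84 and 9.41 in control, 7.82 and 8.05 under sh1 and 7.77 and 8.19 under sh2, a fall by 1.65 (SE 0.15, adjusted p = 0.0178, limma). Itga2 itself gave 11.37, 11.46 and 11.05, then 9.50 and 9.30, then 9.12 and 9.72, and fell by 1.88 (SE 0.17, adjusted p = 0.0192, limma). Neither overlapped between control and shSnail. The shSnail values of TC1300002714 lay at that 95th percentile on 1 array (8.05 on sh1 replicate 2) and below it on the other 3, which leaves the size of its fall uncertain. TC0800002299 on chromosome 8 stands next to Palld, which encodes the actin-binding protein palladin. It gave 9.95, 9.89 and 9.80, then 8.80 on both sh1 arrays, then 8.26 and 8.82, and fell by 1.21 (SE 0.16, adjusted p = 0.0482, limma), while Palld fell by 0.40 (SE 0.02, adjusted p = 0.0044, limma) from 5.94, a level below the 95th percentile of the negative controls. On sh2 replicate 1, TC0800002299 lay at 8.26, below the 95th percentile of the negative controls on that array (8.39). It lay above that percentile on the other shSnail arrays, so the size of its fall is partly uncertain. The member at TC1300002714 and that at TC0800002299 each kept the call in 1 of 7 fits with an array left out.

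TC1900000193 on chromosome 19 was lower with each hairpin but was not called jointly. It gave 10.83, 10.89 and 11.11 in control, 9.74 and 9.77 under sh1 and 10.14 and 10.21 under sh2. All shSnail arrays were below control, and those of sh1 were the lowest. It fell by 1.19 with sh1 (SE 0.09, adjusted p = 0.0484) and it fell by 0.77 with sh2 (SE 0.09, adjusted p = 0.043), and the joint difference of -0.98 did not pass (SE 0.15, adjusted p = 0.0816, limma). The difference between the hairpins, 0.42, did not pass either (SE 0.10, adjusted p = 0.478, limma). TC1400000071 was the other cluster called lower with sh1 and not jointly, and its values are given in the closing section. The remaining lower members fell by 0.29 to 0.74, among them TC1300002481 at 10.85 on the control arrays (by 0.74, SE 0.06, adjusted p = 0.0166) and TC0300002994 at 12.33 (by 0.69, SE 0.06, adjusted p = 0.0186, limma).

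The largest rise was that of TC0800003101 on chromosome 8. It gave 9.99, 9.91 and 10.94 in control, 13.70 and 13.58 under sh1 and 13.89 and 13.91 under sh2. The groups stood far apart, although control replicate 3 lay about 1 unit above the other control arrays. The difference was 3.49 jointly (SE 0.27, adjusted p = 0.0134), 3.62 with sh2 (SE 0.34, adjusted p = 0.0376) and 3.36 with sh1 (SE 0.34, adjusted p = 0.0753, limma). Its call was kept in 1 of the 7 fits with an array left out, with adjusted p between 0.0076 and 0.0724. The clusters on both sides by number did not pass: TC0800003100, itself a member at 14.14, differed by -0.05 (adjusted p = 0.865), and Dbndd1, at 3.64, by 0.02 (adjusted p = 0.782, limma).

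TC0400002337 on chromosome 4 is named Gm11902 by the study, which describes it as a pseudogene of Depdc6. Depdc6 is an older name of Deptor, whose protein binds and inhibits the kinase mTOR. The member gave 8.45, 8.50 and 8.49 in control, 9.72 and 9.89 under sh1 and 9.88 and 9.81 under sh2. It rose by 1.32 with sh1 (SE 0.06, adjusted p = 0.0295), by 1.37 with sh2 (SE 0.06, adjusted p = 0.0203) and by 1.34 jointly (SE 0.05, adjusted p = 0.00205, limma), and it kept its joint call without each array in turn. Deptor, on chromosome 15, gave 10.36, 10.32 and 10.50, then 11.78 and 11.93, then 12.06 and 11.96, and rose by 1.54 (SE 0.08, adjusted p = 0.0044, limma). A gene and its pseudogene can share sequence, so that signal from either may reach the probes of the other, which was not tested.

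TC0100003487 on chromosome 1 gave 10.74, 10.69 and 10.83 in control, 11.58 and 11.60 under sh1 and 11.82 and 11.70 under sh2. It rose by 0.83 with sh1 (SE 0.06, adjusted p = 0.0408), by 1.00 with sh2 (SE 0.06, adjusted p = 0.0203) and by 0.92 jointly (SE 0.07, adjusted p = 0.0123, limma). TC1000001253 on chromosome 10 gave 8.54, 8.92 and 8.76, then 9.78 and 10.11, then 10.21 and 9.82, and rose by 1.24 jointly (SE 0.15, adjusted p = 0.0388, limma). TC0900000680 on chromosome 9 gave 8.74, 8.60 and 8.84, then 9.67 and 9.42, then 9.79 and 9.71, and rose by 0.92 (SE 0.10, adjusted p = 0.0355, limma). In none of these did the control arrays overlap with the shSnail arrays. Without 1 array the call was kept in 4 of 7 fits for TC0100003487, in 1 for TC0900000680 and in 0 for TC1000001253.

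**Figure D4:**
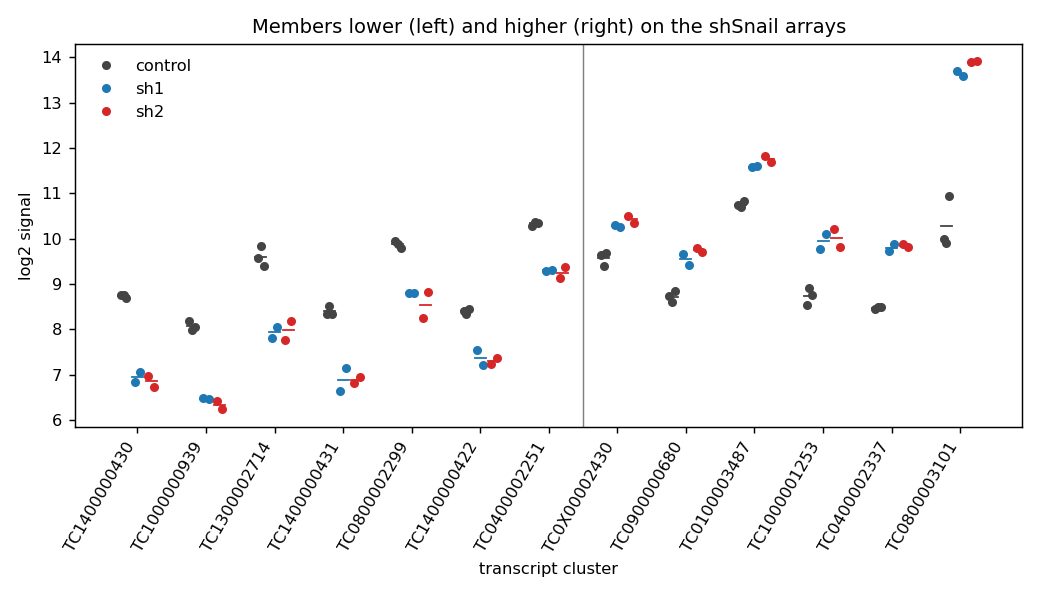
Log2 signal (vertical axis) of the 7 lower and 6 higher members with the largest joint changes, with 1 point per array, short lines at the group means and colours for control, sh1 and sh2. In all 13 clusters the shSnail arrays do not overlap with the control arrays, and TC0800003101 rises from between 9.91 and 10.94 to between 13.58 and 13.91.

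The sh2 comparison alone called further members higher. TC1300000751 gave 10.13, 9.95 and 10.44 in control, 10.94 and 11.07 under sh1 and 11.65 and 12.08 under sh2. Its values rose in the order control, sh1 and sh2 with no overlap. The difference with sh2 was 1.69 (SE 0.20, adjusted p = 0.043) and that with sh1 0.83 (SE 0.20, adjusted p = 0.334), and sh2 and sh1 differed by 0.86 (SE 0.22, adjusted p = 0.522, limma). TC1100003888 was higher by 1.38 with sh2 (SE 0.13, adjusted p = 0.0378) and by 0.63 with sh1 (SE 0.13, adjusted p = 0.28, limma). TC0200005043 was higher by 1.19 with sh2 (SE 0.09, adjusted p = 0.0301) and by 0.81 with sh1 (SE 0.09, adjusted p = 0.0919, limma). Of the 42 members called higher with sh2, 11 were also among the 15 called jointly, or 26.2% of the first list and 73.3% of the second. The other direction gave 11 of 15 on both sides.

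Neighbours by number were read for the 30 members called jointly. A cluster with 1 symbol stood within 2 numbers of all 15 lower members, and 5 of these neighbours were called lower and 0 higher. The 5 were Itga2, Palld and, on chromosome 14, Gm8032, Gm7152 and Gm7991. All 15 higher members had such a neighbour, of which 1 was called higher and 0 lower: Gm340 beside TC1900000593, with differences of 0.64 (SE 0.06, adjusted p = 0.0256) and 0.53 (SE 0.05, adjusted p = 0.0178, limma). Beside TC0600002108, which rose by 0.51 (SE 0.05, adjusted p = 0.027), Hipk2 differed by 0.39 (SE 0.05, adjusted p = 0.0526, limma). Among 1727 members that were not called and had such a neighbour, the neighbour was lower in 7 and higher in 4. Whether a member and its neighbour overlap on the chromosome was not tested.

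The longest run by number was on chromosome 9, from TC0900000001 to TC0900000008, with 8 members between 11.62 and 16.17. Their shifts with sh2 lay between -0.23 and 0.17 and 4 of the 8 were above 0. None passed in any comparison (0 of 8 by limma). TC0900000003, the brightest, gave 15.96, 16.11 and 16.44 in control, 16.47 and 16.01 under sh1 and 15.95 and 16.27 under sh2, so that the arrays of a group differed more than the groups. After a run of 5 mitochondrial clusters there were 4 runs of 4 members, on chromosomes 1, 2, 3 and 7, with median sh2 shifts of 0.29, 0.02, 0.27 and 0.03. No member of those on chromosomes 2, 3 and 7 passed in any comparison (lowest adjusted p = 0.098, limma). The one on chromosome 1, TC0100003268 to TC0100003272, lies beside Lamc1 by number, and in it TC0100003272 rose by 0.60 (SE 0.06, adjusted p = 0.027, limma) while the other members shifted by 0.07 to 0.24 and did not pass.

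Members were not all separate measurements. In 34 sets, 158 members held the same 7 values, to the 5 decimals deposited, as another member, and 23 of these sets spanned more than 1 chromosome, so that the 2019 members held 1895 distinct profiles. The largest set had 26 members on 12 chromosomes, with 14.61, 14.90 and 14.95 in control, 14.75 and 14.68 under sh1, and 15.26 and 15.06 under sh2. The next had 18 members on 11 chromosomes, with 13.50, 13.69 and 13.77, then 13.69 and 13.74, then 14.12 and 14.06. In both sets the sh2 arrays were the highest, and the differences with sh2 were 0.34 (adjusted p = 0.442) and 0.43 (adjusted p = 0.142, limma). Over the 158 members the median sh2 shift was 0.43, against 0.08 in the others. One set was called: TC0500002141, TC1000001653 and TC1300000982, on 3 chromosomes, differed by 0.64 with sh2 (adjusted p = 0.044, limma) and count as 3 of the 42 higher members.

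Named clusters offer one comparison by kind of RNA. At a control mean of 8 or more, the median sh2 shift was 0.00 in 5962 protein-coding clusters, 0.27 in 38 small nucleolar RNAs, which guide the modification of other RNAs, 0.24 in 35 microRNAs and 0.03 in 31 long non-coding RNAs. In 27 ribosomal RNAs it was -0.45, in 14 small nuclear RNAs -0.02, in 106 pseudogenes 0.01 and in 53 transcribed pseudogenes 0.00. With sh1 these medians were 0.00, 0.04, 0.10, -0.02, -0.39, -0.09, 0.02 and 0.03. The members' 0.10 lay below those of the small nucleolar RNAs and microRNAs and above the others. The kinds of RNA among the members are not known from the sources used here.

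Some members were poorly fixed by the control arrays that chose them. In 26 members the 3 control values spanned more than 1 unit. TC1700001227 gave 7.55, 6.49 and 12.25 in control, 7.55 and 5.23 under sh1 and 7.55 and 11.26 under sh2, so that it was a member through control replicate 3 alone. TC0500001214 gave 12.09, 9.19 and 12.16, then 10.10 and 11.58, then 11.56 and 12.16. In both, the control arrays overlapped with those of each hairpin.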

How the data were processed

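Signals were deposited on the log2 scale, 1 column per array, and were made by the authors with Affymetrix software (Expression Console, then Transcriptome Analysis Console). The background correction, probe summary, versions, build and annotation were not given in the sources used here. Analysed rows are 65770 transcript clusters and 5222 negative controls. Values equal to the 5 decimals deposited, on 2 or more arrays, occur in 79.9% of clusters. 0 value columns were left unused. Symbols came from the platform annotation: 30473 clusters had 1, 2176 several and 33121 none. RefSeq genes of the GRCm38.p6 assembly gave the chromosome and kind of named genes only.

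Groups came from the sample labels. The values were fitted without further normalization in R 4.3.3 by lmFit and eBayes of limma 3.58.1, and p-values were adjusted by Benjamini-Hochberg over all 65770 clusters. The 3 groups gave each hairpin against control and sh2 against sh1, and a fit of 2 groups gave shSnail (4 arrays) against control (3 arrays). A call is an adjusted p under 0.05. Medians over members carry no test. Some clusters have equal values on all arrays, which limma offsets from a variance of 0. The number of arrays limits the precision. The script was tested on simulated data with clusters changed by known amounts.

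The members and the lists were chosen with earlier results of these data known. Named members are the 10 brightest, the largest changes among called members (8 in each direction for each comparison with control), those that the study names, those at the edge of the level, and the 3 longest runs by number, where 4 runs of 4 members tied for the third and the first by ID is named. Mitochondrial members, sets with equal values and members spread among the control arrays were named after their values were seen. Alternatives were quantile normalization, centring on the median or on the negative controls, eBayes with trend and robust, a filter at the 40th percentile, other ways to choose members, a replicate block, fewer arrays, a 2-fold minimum and the study's threshold.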

Additional observations from a re-analysis of the deposited data

Results flagged for a closer look

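Of 72 members (those named, the others called jointly and all mitochondrial ones), 8 had 1 of the 4 shSnail arrays far from the rest by Dixon's test. Chance gives about 1 in 20 only for untied values of a single group. Here the arrays came from both hairpins, some values tied and some members held the same values. The count of 8 is therefore not read as an excess over chance. The gap as a share of the range was 0.96 for TC0800002299, whose first sh2 array, at 8.26, lay below the others at 8.80, 8.80 and 8.82. It was 0.941 for TC0100003268 and 0.847 for TC0M00000019. In the other 5, all among the brightest members, the first sh1 array was the lowest: 0.972 for TC1600000133, 0.97 for both TC0400001746 and TC0900002348, which hold the same values, 0.936 for TC1300001428 and 1.00 for TC1500000834. These 5 lie between 18.58 and 18.93 on the control arrays, and their other shSnail values are equal or nearly so.

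In TC1400000071 on chromosome 14 the arrays of the hairpins lay on opposite sides of the control arrays. It gave 11.40, 11.38 and 11.38 in control, 11.18 and 11.20 under sh1 and 11.45 and 11.44 under sh2. The sh1 arrays lay below and the sh2 arrays above all control arrays. It fell by 0.20 with sh1 (SE 0.01, adjusted p = 0.0449), the difference of 0.06 with sh2 did not pass (SE 0.01, adjusted p = 0.221), and sh2 minus sh1 was 0.26 (SE 0.02, adjusted p = 0.204, limma), which did not pass.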

How the results depend on the processing

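The median shifts of the members kept their sign under every alternative here except centring on the negative controls, and most counts of calls moved. Of 199 counts and medians computed under an alternative, 95 stayed close to the value given (within 1.5 times for a count, within 0.024, the SD between arrays, for a median). Counts below are lower and higher members in that order, and the cause of a change was not tested except where fewer arrays or clusters entered. The shares of all clusters called under each alternative are not given, so these counts show only how far the calls moved.

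Quantile normalization gave 12 and 7 with sh1, 43 and 89 with sh2, and 30 and 27 with shSnail. Its median shifts were 0.046 with sh2 and 0.035 with shSnail. Median centring gave 11 and 5, 20 and 117, and 19 and 27. Centring on the negative controls gave 27 and 7, 941 and 145, and 154 and 84, with 376 and 43 for sh2 against sh1, and median shifts of -0.076, -0.215 and -0.135. It moved the median of all clusters by -0.10, -0.31 and -0.21. eBayes with trend and robust gave 2 lower with sh1 and 26 higher with sh2. The filter at the 40th percentile, which tests fewer clusters, gave 9 and 7, 25 and 97, and 25 higher with shSnail.

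Members chosen by the mean of all 7 arrays had 3 lower with sh1 and 164 higher with sh2, with median shifts of 0.057, 0.156 and 0.115. That choice uses the hairpin arrays, so clusters enter it because a hairpin raised them and leave it because a hairpin lowered them. More higher calls and larger medians are built into it, and these values are no support for a rise. With a control mean of 7 or more there were 197 higher with sh2 and 24 lower with shSnail, with medians of 0.059, 0.135 and 0.104. With 9 or more there were 3 and 1 with sh1, 27 higher with sh2 and 9 higher with shSnail. Members with equal values counted once, an alternative chosen after seeing the data, left all counts within 1.5 times.

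With only the arrays compared, the counts were 1 and 0 with sh1 and 0 and 1 with sh2. The 3 groups fitted together gave 27 higher with shSnail. A change above 2-fold left 1 higher with sh1, 6 and 9 with sh2, and 7 and 3 with shSnail. More than 2-fold with an unadjusted p under 0.0005, as the study called genes, gave 6 and 2 with shSnail.

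With 1 array left out, the counts lay between 0 and 8 lower and 0 and 3 higher with sh1, 0 and 23 lower and 0 and 54 higher with sh2, 3 and 6 lower and 2 and 6 higher with shSnail, and 0 and 8 lower and 0 and 11 higher for sh2 against sh1. The medians lay between 0.010 and 0.047 with sh1, 0.078 and 0.119 with sh2, and 0.054 and 0.094 with shSnail. Of the 30 members called jointly, 4 kept the call in all 7 of these fits.

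The replicate block gave 0 and 0 in every comparison. Replicate 3 exists only in control, so the block in effect takes that array out. Its median shifts, 0.047, 0.119 and 0.094, equalled those without control replicate 3. Fewer values are then left to estimate the spread, so the loss of calls is not read as an effect of pairing. Deviations of arrays with the same number correlated at -0.0721 and -0.14 between control and sh1, and at -0.101 and -0.21 between control and sh2. They correlated at 0.157 between sh1 and sh2. With 2 arrays for a hairpin, the deviations from their mean mirror each other. Different numbers therefore gave -0.157 between sh1 and sh2, and whether the numbers pair the samples is not decided by this check. Of the 30 members called jointly, quantile normalization left 29 past the test, median centring and the filter 30, eBayes with trend and robust 24 and centring on the negative controls 23, and none changed its sign in these fits.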
